A study of Rattus norvegicus with 9 samples.

Results

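The genes of the vascular endothelial growth factor (VEGF) system described here are the ligands Vegfa, Vegfb, Vegfc and Pgf (placental growth factor) and the receptors Flt1 (VEGF receptor 1) and Kdr (VEGF receptor 2). They were taken as the rows of the deposited tables whose symbol equals 1 of these names, which gave 6 genes of 22050, with 1 row each: Vegfa (ENSRNOG00000019598), Vegfb (ENSRNOG00000021156), Vegfc (ENSRNOG00000011416), Pgf (ENSRNOG00000005650), Flt1 (ENSRNOG00000000940) and Kdr (ENSRNOG00000046829). Gene expression had been measured by RNA sequencing in 9 libraries from primary cortical neurons from Sprague Dawley rat embryos at embryonic day 19, 3 per group. In the first, cells underwent OGD (loss of oxygen and glucose together, used to mimic stroke in a dish) and received Wnt3a at 100 ng/ml plus Rspondin 1 at 50 ng/ml, for 24 h. The second had OGD alone: cells were held for 4.5 h at 1% oxygen in medium without glucose and pyruvate before going back to regular medium and normal oxygen. Untreated cultures served as control. Wnt3a activates Wnt/beta-catenin signalling and Rspondin 1 strengthens that response. The deposited tables call OGD alone vehicle, but its labels name no vehicle. Wnt3a plus Rspondin 1 in cultures without OGD was not analysed here. Duration and oxygen are labelled for OGD alone, and the sources used here do not give the harvest time.

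VEGF ligands are secreted dimers that bind receptor tyrosine kinases. VEGF-A signals mainly through Kdr, the receptor that drives the growth and permeability of blood vessels, while VEGF-B and PlGF bind Flt1, and VEGF-C binds Flt4 and, after processing, Kdr. In brain, VEGF-A is made by neurons and glia, its gene is a classic target of hypoxia-inducible factors (HIF), and the receptors are best known from endothelial cells, although neurons and glia can carry them too.

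Total counts ran from 14285914 to 25048521 per library. Replicates of a group differed by 3.60 to 28.4 in chi-square per degree of freedom, all above sampling noise, and OGD replicate 1 stood farthest from its group, at 28.4 and 22.3 against 6.17 between the other OGD libraries. Separate cultures or animals are not stated for the replicates; the p-values cover the spread among these libraries, and that spread may be technical. The labelled cell type is cortical neurons, and neuronal markers were present in all groups, but markers of astrocytes were too: the 11 astrocyte markers summed to 6542 to 6839 FPKM (counts per gene length and library size) with Wnt3a plus Rspondin 1, 7029 to 7681 FPKM in OGD and 2930 to 3103 FPKM in control. The 12 neuronal markers summed to 608 to 811 FPKM with Wnt3a plus Rspondin 1, 617 to 843 FPKM in OGD and 3648 to 3865 FPKM in control, and all 12 were lower in OGD than in control. As the Wnt check, Axin2, a feedback inhibitor and standard Wnt/beta-catenin target, stood at 5.18, 5.30 and 5.72 FPKM with Wnt3a plus Rspondin 1, against 2.51, 2.24 and 2.02 FPKM in OGD.

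Vegfa, Vegfb and Kdr are the genes that passed the test below. The 250 bases before their transcription starts, from RefSeq on build GRCr8, are shown to set their upstream sequences beside their values. They run 5′ to 3′ on the strand of the gene, with capitals marking the core of the hypoxia response element, the short motif bound by HIF (ACGTG or GCGTG, on either strand). Vegfa is on the plus strand at chr9:22452604-22452853, Vegfb on the minus strand at chr1:213607153-213607402, and Kdr on the plus strand at chr14:32571813-32572062.
Vegfa: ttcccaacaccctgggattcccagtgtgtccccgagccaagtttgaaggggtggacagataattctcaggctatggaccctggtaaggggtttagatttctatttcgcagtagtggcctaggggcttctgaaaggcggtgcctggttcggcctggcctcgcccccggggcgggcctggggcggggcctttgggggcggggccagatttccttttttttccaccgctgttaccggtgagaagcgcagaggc
Vegfb: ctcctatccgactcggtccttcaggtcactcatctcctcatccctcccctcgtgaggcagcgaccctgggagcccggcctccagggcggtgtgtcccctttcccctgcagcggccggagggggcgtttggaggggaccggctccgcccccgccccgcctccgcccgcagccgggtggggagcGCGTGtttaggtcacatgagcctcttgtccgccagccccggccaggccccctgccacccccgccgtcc
Kdr: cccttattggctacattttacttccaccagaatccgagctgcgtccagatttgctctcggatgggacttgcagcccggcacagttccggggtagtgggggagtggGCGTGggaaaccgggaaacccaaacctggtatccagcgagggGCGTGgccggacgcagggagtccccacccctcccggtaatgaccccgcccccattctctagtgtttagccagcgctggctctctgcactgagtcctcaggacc
The core occurred in 36.8% of the 33360 rat windows of this length. The Kdr window held it at 2 places, starting 145 and 103 bases before the start, and the Vegfb window at 1 place, 68 bases before it. The Vegfa window did not hold these letters; in human VEGFA the well-studied hypoxia response element lies farther upstream than such a window reaches. A second listed Vegfa start had no core either. Of the others, the Pgf and Flt1 windows held 1 core each and the Vegfc window none. The core bound by TCF/LEF, the factors at the end of the Wnt/beta-catenin pathway (CTTTGNN with each N being A or T, on either strand), was in none of the 7 windows of the 6 genes and in 14.9% of all windows. These are matches of letters, and binding was not measured.

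The 6 genes covered a wide range of levels. In control, Vegfa was the most abundant at 127 ± 5.63 FPKM (mean ± SD, n = 3 throughout), rank 623 of all 22050 genes, followed by Vegfb at 8.43 ± 0.666 FPKM. Pgf (0.92 to 1.36 FPKM), Vegfc (0.34 to 0.78 FPKM) and Kdr (0.23 to 0.42 FPKM) followed, and the ranges of Vegfc and Kdr overlapped. In OGD the order was Vegfa, Vegfb, and then Pgf (1.02 to 1.70 FPKM), Kdr (1.20 to 1.57 FPKM) and Vegfc (0.80 to 1.25 FPKM), whose ranges overlapped. With Wnt3a plus Rspondin 1, Vegfa and Vegfb again led, Pgf (1.28 to 1.57 FPKM) and Kdr (1.16 to 1.43 FPKM) overlapped, and Vegfc (0.52 to 1.02 FPKM) lay below both. Flt1 was at or near 0 everywhere. Since a library holds all cells of a culture, fewer cells of a type and less RNA per cell cannot be told apart in any of these values.

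**Figure D1:**
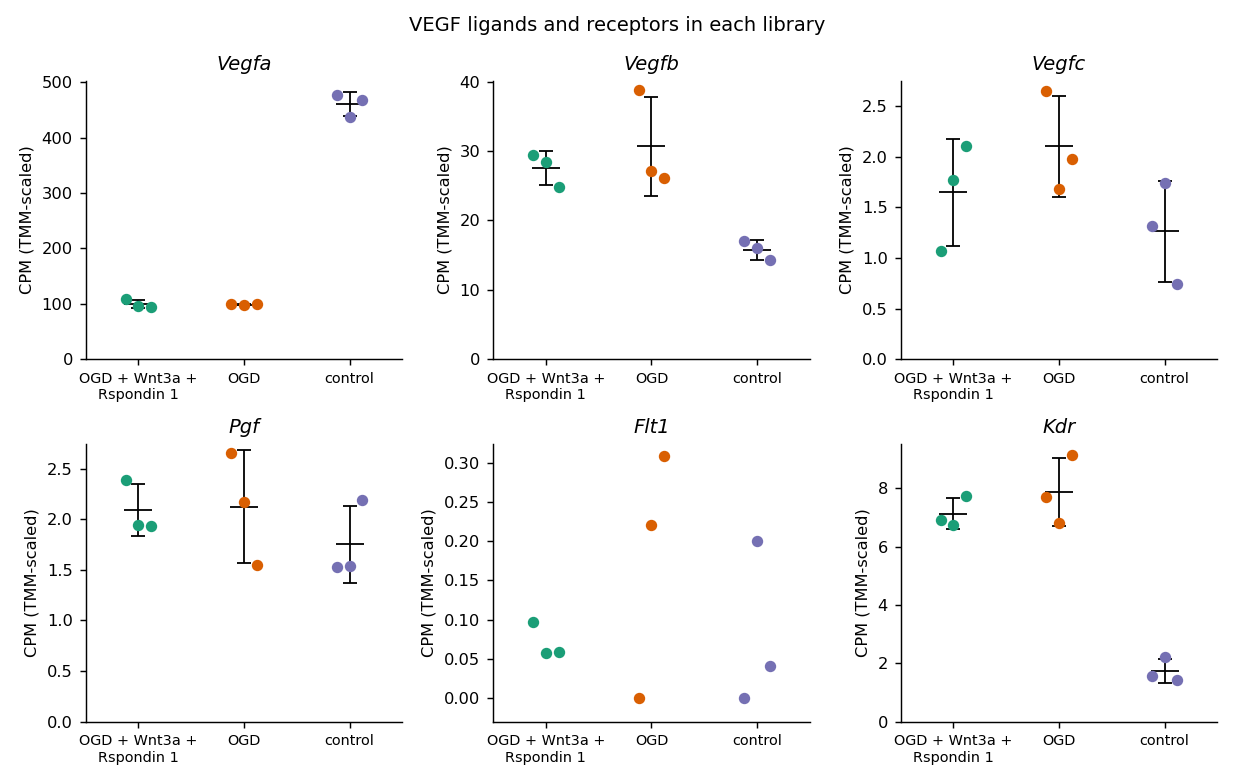
Counts as CPM (per library total, scaled by TMM) of each gene in every library, with OGD plus Wnt3a and Rspondin 1 on the left, OGD in the middle and control on the right; points are libraries and, except for Flt1, black bars are the mean ± SD (n = 3). Vegfa is low and Vegfb and Kdr are high in both OGD groups, while the groups overlap for Vegfc, Pgf and Flt1.

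OGD was first set against control. Vegfa fell and Vegfb and Kdr rose, each with no overlap between the groups' libraries (75.1% of all tested genes did not overlap), while Vegfc and Pgf did not pass the test. The test was edgeR's quasi-likelihood test on counts over all 13693 genes that passed a filter on low counts, with Benjamini-Hochberg adjustment and a threshold of 0.05. It called 10012 genes (73.1%), 36.3% of those tested as higher and 36.8% as lower, so the 3 calls among the 5 genes tested are close to the background. Flt1 did not pass the filter.

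Vegfa, the main angiogenic and permeability factor, stood at 28.64, 28.53 and 29.51 FPKM in OGD, against 130.14, 120.86 and 131.03 FPKM in control. Every OGD library was far below every control library, and the OGD libraries were nearly alike. On the log2 scale Vegfa fell by 2.23 ± 0.08 (change ± SE, 95% interval -2.39 to -2.06, adjusted p = 2.6e-10, edgeR). Its change was the 1056th lowest of 13693, and its level ranked 3279 of 22050 in OGD. These counts were large (1417 to 2196 reads in OGD, 6532 to 11371 in control). The neuronal markers moved the same way in the same libraries (median log2 change -2.67, all 12 lower), beside 36.8% of all tested genes called lower. Their part in the Vegfa result was not tested.

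Vegfb, a ligand of Flt1 known for roles in fatty acid handling and neuron survival more than in vessel growth, stood at 21.80, 15.39 and 15 FPKM in OGD, against 9.02, 8.57 and 7.71 FPKM in control. The groups did not overlap, and OGD replicate 1, the library that stood apart, was the highest. Vegfb rose by 0.96 ± 0.15 on the log2 scale (0.63 to 1.28, adjusted p = 7.01e-05, edgeR). Without OGD replicate 1 the change was 0.76 (adjusted p = 1.41e-05), and Vegfa and Kdr stood at -2.23 and 2.21. Of the 11 astrocyte markers, 9 rose and 1 fell (median 1.22), beside 36.3% of all tested genes called higher. Medians were also positive for microglial (2.16), progenitor (1.62), oligodendrocyte lineage (0.87), mural cell and fibroblast (0.60) and endothelial (0.13) markers. Calls went both ways for progenitor (5 higher, 1 lower), oligodendrocyte lineage (6 higher, 3 lower), mural (4 higher, 3 lower) and endothelial (2 higher, 2 lower) markers. The summed endothelial level was lower in OGD (23.2 to 26.9 FPKM) than in control (38.7 to 43.5 FPKM). The median of the neuronal markers was -2.67. The part of any of these cell types in the Vegfb result was not tested.

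Vegfc, best known as the growth factor of lymphatic vessels, stood at 1.25, 0.80 and 0.95 FPKM in OGD, against 0.58, 0.78 and 0.34 FPKM in control. Each OGD library was above each control library by FPKM, but by scaled counts OGD replicate 2 (1.68 CPM) lay under control replicate 2 (1.74 CPM). The log2 change was 0.76 ± 0.35 (0.00 to 1.51, adjusted p = 0.0666, edgeR). It rested on 18 to 38 reads a library and crossed the threshold without control replicate 2 (1.05, adjusted p = 0.0297), with library totals as the only scaling (0.84, adjusted p = 0.0437) and with limma on FPKM (0.76, adjusted p = 0.0411). It stood farther from the threshold without control replicate 3 (0.46, adjusted p = 0.256), without OGD replicate 1 (0.57, adjusted p = 0.180) and with DESeq2 (0.74, adjusted p = 0.105).

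Pgf, which binds Flt1 and not Kdr, stood at 1.70, 1.41 and 1.02 FPKM in OGD, against 0.92, 0.94 and 1.36 FPKM in control. The groups overlapped, and the log2 change was 0.25 ± 0.26 (-0.31 to 0.81, adjusted p = 0.391, edgeR), an interval that leaves room for a change in either direction. With 1 library left out it ranged from 0.08 (without OGD replicate 1) to 0.47 (without control replicate 3).

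Kdr, the main signalling receptor of VEGF-A, stood at 1.29, 1.20 and 1.57 FPKM in OGD, against 0.28, 0.42 and 0.23 FPKM in control. In reads these are 110, 154 and 148 in OGD, against 30, 33 and 35 in control. The groups lay far apart at low levels. Kdr rose by 2.20 ± 0.19 on the log2 scale (1.78 to 2.61, adjusted p = 3.17e-07, edgeR), the 221st highest change of 13693. In the same libraries 9 of 13 microglial markers measured passed the filter, and all 9 rose (median log2 change 2.16). Of these, Aif1 had 3 reads or fewer in every control library. It passed the filter through the OGD groups, where it was higher, so its direction was partly set by the filter. Of 7 neural progenitor markers 5 rose and 1 fell (median 1.62). Marker sums were 41.4 to 51.9 FPKM in OGD and 13.4 to 17.0 FPKM in control for microglia. For progenitors they were 4007 to 4575 FPKM in OGD and 1045 to 1178 FPKM in control. Astrocyte markers (9 higher, 1 lower) and oligodendrocyte lineage markers (6 higher, 3 lower) were mostly higher too, and all 12 neuronal markers were lower. Of all tested genes 36.3% were called higher. The part of any of these cell types in the Kdr result was not tested. Count and FPKM of Kdr did not follow 1 fixed gene length, which came out at 5.03 to 6.08 kb across libraries, so its FPKM carries more uncertainty than that of Vegfa (3.46 to 3.47 kb).

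Flt1, which binds VEGF-A tightly with weak kinase activity and in its soluble form acts as a decoy, had 0, 5 and 5 reads in OGD, against 0, 3 and 1 reads in control. With so few reads no difference was detectable. A count of 0 allows up to 3 reads, or 0.210 CPM in OGD replicate 1 and 0.149 CPM in control replicate 1. With Wnt3a plus Rspondin 1 it had 2, 1 and 1 reads. The ratio of Kdr to Flt1 was therefore not computed.

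In the authors' deposited table the log2 changes were -2.14 for Vegfa (FDR 1.91e-158), 1.04 for Vegfb (FDR 4.59e-07) and 2.13 for Kdr (FDR 7.14e-15), with Vegfc at 0.82 (FDR 0.121) and Pgf at 0.36 (FDR 0.561).

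**Figure D2:**
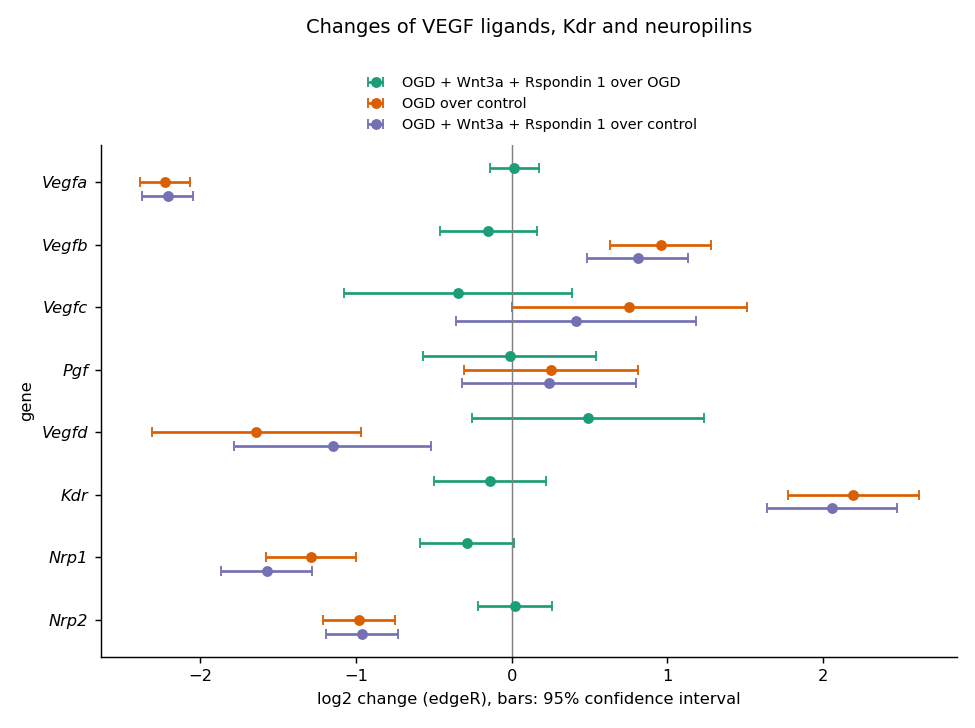
Log2 changes from edgeR with 95% confidence intervals for OGD plus Wnt3a and Rspondin 1 over OGD, OGD over control, and OGD plus Wnt3a and Rspondin 1 over control. Vegfa, Vegfd, Nrp1 and Nrp2 lie left of 0 and Vegfb and Kdr right of it in both comparisons with control, and every interval for the added proteins over OGD includes 0.

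Kdr is an endothelial marker, so it was set beside 16 other endothelial genes, of which 15 were in the table and 7 passed the filter (2 higher, 2 lower, 3 not called). Their summed level was 23.9 to 26.5 FPKM with Wnt3a plus Rspondin 1, 23.2 to 26.9 FPKM in OGD and 38.7 to 43.5 FPKM in control, mostly from Ramp2 and Mfsd2a. Cldn5, the tight-junction claudin of brain endothelium, had 0 reads in all 9 libraries. Cdh5, the endothelial cadherin, had 0 to 3, 0 to 2 and 1 to 4 reads in the same group order, and Emcn, Erg and Sox17 were at 3 reads or fewer in every library. Vwf, von Willebrand factor, had 63 to 88 reads with Wnt3a plus Rspondin 1, 69 to 88 in OGD and 12 to 35 in control, and rose in OGD by 1.88 ± 0.36 on the log2 scale (adjusted p = 0.000359, edgeR). Tek, the angiopoietin receptor, rose by 1.78 ± 0.44 (adjusted p = 0.00254, edgeR) on 8 to 19 reads in OGD and 3 to 6 in control. The others called were lower in OGD: Ramp2 fell by 1.17 ± 0.11, and Esam, an endothelial adhesion molecule, fell by 1.41 ± 0.31 (adjusted p = 0.00112, edgeR). The called markers were thus split evenly in direction. However, Tek passed the filter through the OGD groups and Esam (15 to 30 reads in control, 7 to 11 in OGD) through control. Each was higher there, so the directions of these genes were partly set by the filter.

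**Figure D3:**
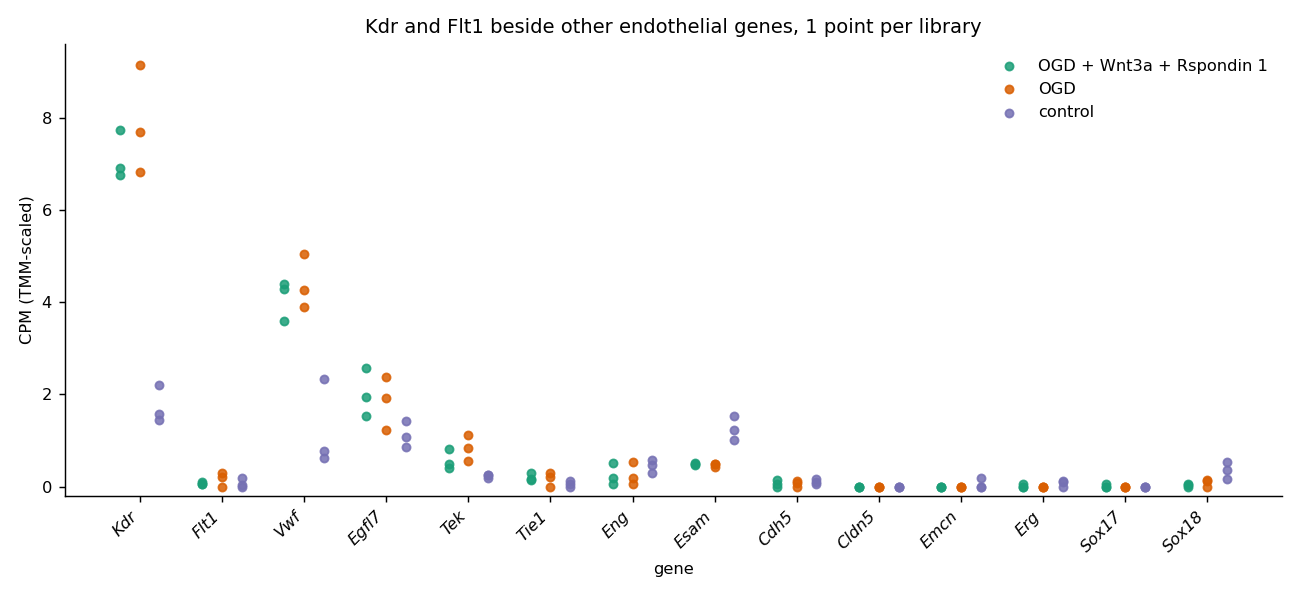
CPM (TMM-scaled) of Kdr, Flt1 and 12 other endothelial genes, 1 point per library, with OGD plus Wnt3a and Rspondin 1, OGD and control from left to right within each gene. Kdr and Vwf are higher in both OGD groups, and Cldn5, Cdh5, Emcn, Erg and Sox17 lie at or near 0 in all groups. Ocln, Mfsd2a and Ramp2 are not drawn, and of these only Ramp2 was called, as lower in OGD.

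The make-up of the ligands differed between OGD and control. Summed over Vegfa, Vegfb, Vegfc, Pgf and Vegfd, the ligand level was 48.0 ± 3.07 FPKM with Wnt3a plus Rspondin 1, 48.8 ± 4.07 FPKM in OGD and 138 ± 5.51 FPKM in control. Vegfa made up 61.8 ± 1.20% of that sum with Wnt3a plus Rspondin 1, 59.4 ± 5.22% in OGD and 92.3 ± 0.522% in control, and Vegfb 33.1%, 35.4% and 6.12% in the same order. Per unit of Vegfb FPKM there was 1.87 of Vegfa with Wnt3a plus Rspondin 1, 1.71 in OGD and 15.2 in control. In log2 terms the ratio of Vegfa to Vegfb averaged 0.75 ± 0.31 in OGD and 3.92 ± 0.15 in control, with no overlap. The exact two-sided permutation test gave p = 0.1, the smallest that 3 libraries against 3 can give, so this design cannot pass 0.05 (adjusted p = 0.15 over the 9 ratio tests). The ratio of Pgf to Vegfb, both ligands of Flt1, averaged -3.67 ± 0.22 in OGD and -3.00 ± 0.43 in control on the log2 scale, with the same exact permutation p = 0.1. For OGD with Wnt3a plus Rspondin 1 over OGD the exact permutation p was 0.6 for Vegfa to Vegfb, 0.4 for Pgf to Vegfb and 0.9 for Vegfa to Pgf.

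**Figure D4:**
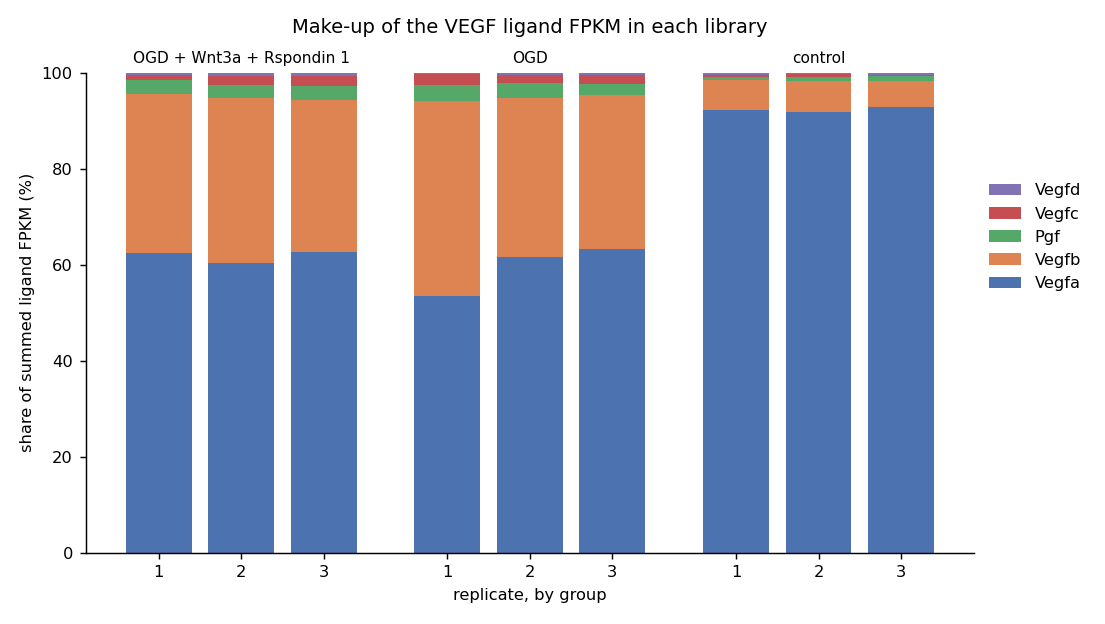
Share of each ligand in the summed ligand FPKM (%) in every library, replicates 1 to 3 of OGD plus Wnt3a and Rspondin 1, OGD and control from left to right. Vegfa takes 53.5% to 63.3% in OGD and 91.9% to 92.9% in control, and Vegfb takes most of the rest.

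Vegfd and both neuropilins, the other tested members of the system, fell in OGD. Vegfd, the other lymphatic ligand, had 6, 13 and 8 reads in OGD, against 29, 19 and 46 reads in control, and fell by 1.64 ± 0.31 on the log2 scale (adjusted p = 0.000358, edgeR). Nrp1, the neuropilin that binds both VEGF-A and class 3 semaphorins, stood at 2.84, 3.27 and 3.88 FPKM in OGD, against 7.32, 7.75 and 7.86 FPKM in control, and fell by 1.29 ± 0.13. Like that of Kdr, the FPKM of Nrp1 did not follow 1 fixed gene length, which came out at 4.49 to 5.07 kb across libraries. Nrp2, the co-receptor of VEGF-C, stood at 3.08, 2.92 and 3.54 FPKM in OGD, against 6.23, 5.32 and 6.15 FPKM in control, and fell by 0.98 ± 0.11. For none of these did the groups overlap, as for 75.1% of all tested genes. Of all tested genes 73.1% were called, 36.8% as lower. Flt4, the receptor of VEGF-C and VEGF-D, was under the filter, with 3, 2 and 1 reads in OGD and 10, 8 and 6 in control.

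Around the ligands and receptors, the HIF genes were mixed. Of 10 subunits and regulators tested, 3 rose and 3 fell (median log2 change -0.11, against 0.02 for all tested genes). Epas1, which encodes HIF-2 alpha and is known from endothelium and glia, rose by 1.53 ± 0.08, to 230 ± 19.7 FPKM in OGD against 74.9 ± 5.06 FPKM in control. Hif1a, the HIF-1 alpha gene, stood at -0.14 ± 0.10 (adjusted p = 0.231, edgeR), and Arnt, their common partner, rose by 0.43 ± 0.10. Vhl, which marks HIF alpha for breakdown, rose by 0.56 ± 0.08, and Egln1, an oxygen-sensing hydroxylase, fell by 0.49 ± 0.11. Hif3a fell by 0.65 ± 0.24. These are transcripts, and HIF activity is set largely by protein stability, which was not measured.

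Other genes that hypoxia induces in many cells were mostly lower too. Of 18 tested, 12 fell and 2 rose (median -0.94), beside 36.8% of all tested genes called lower and 36.3% called higher. Ankrd37, a small ankyrin-repeat gene and HIF target, fell by 3.71 ± 0.43, the hexokinase gene Hk2 by 2.89 ± 0.15 and the lactate dehydrogenase gene Ldha by 1.48 ± 0.07. Ndrg1, a stress-response gene, fell by 2.35 ± 0.22. The 2 that rose, Mxi1 (1.01 ± 0.11) and Kdm3a (0.41 ± 0.10), are named after their values were seen.

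Downstream of the receptors, 55 of 59 signalling enzymes measured were tested, of which 31 fell and 16 rose (median -0.33). The protein kinase C gene Prkcb, which acts below phospholipase C gamma and is also abundant in neurons, fell by 3.20 ± 0.14. Hspb1, a small heat shock protein that the p38 branch phosphorylates, rose by 3.06 ± 0.14, to 52.2 ± 3.33 FPKM in OGD against 5.81 ± 1.05 FPKM in control. The share called in this list, as in those above, is to be read beside the 73.1% of all genes, 36.8% lower and 36.3% higher.

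**Figure D5:**
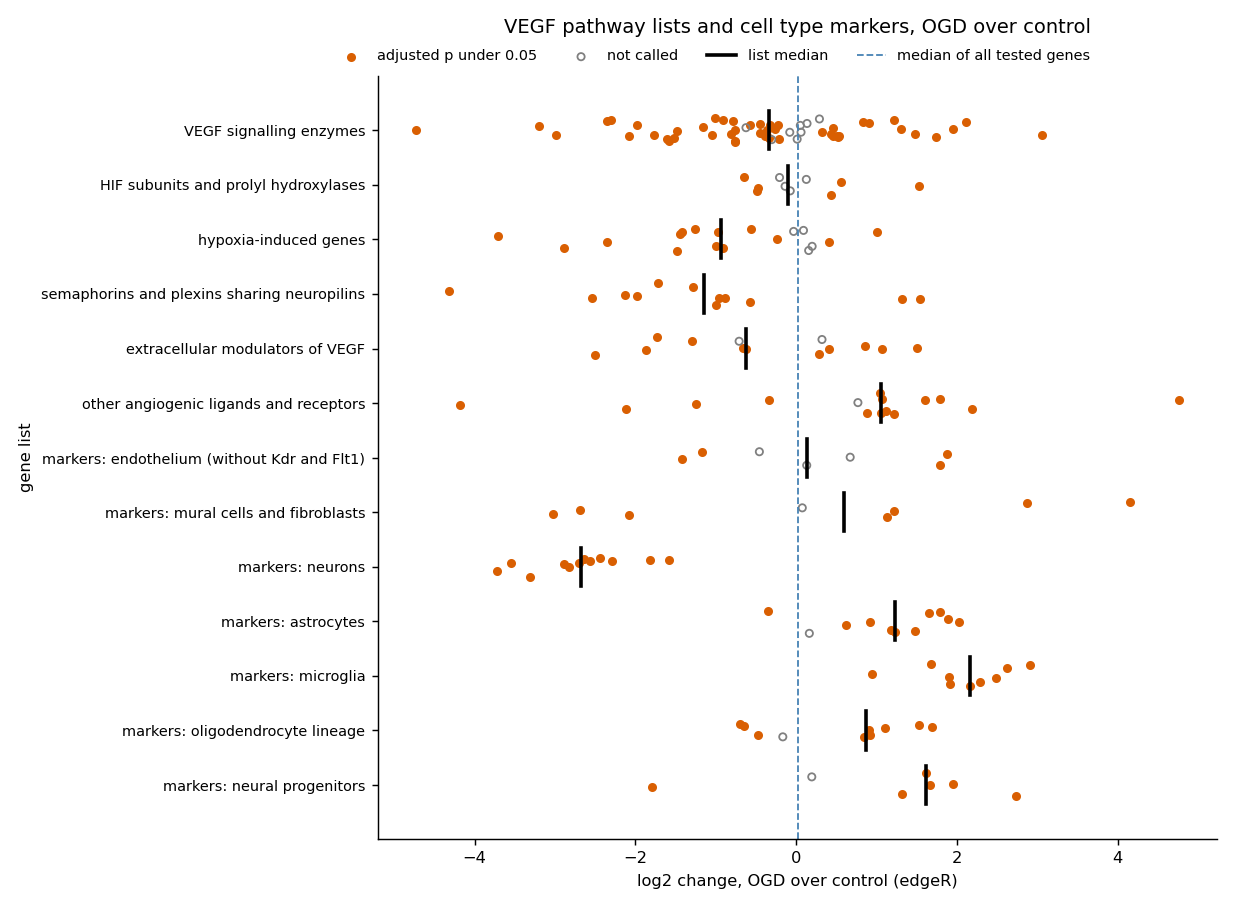
Log2 changes of OGD over control for genes of the VEGF pathway lists and of cell type markers, filled where the adjusted p is under 0.05 and open where it is not; black lines are list medians and the dashed line is the median of all tested genes (0.02). Hypoxia-induced genes and neuronal markers lie mostly to the left, and astrocyte and microglial markers mostly to the right.

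The study's own question, what Wnt3a plus Rspondin 1 changes under OGD, was then put to the same genes. None of the 5 genes tested passed, in a comparison where 27 genes of 13693 did (0.197%, edgeR), and DESeq2 called none of them either. The smallest unadjusted p was 0.324, for Vegfb. At an unadjusted p under 0.05 the background was 784 genes (5.73%).

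Vegfa stood at 32.02, 28.66 and 28.30 FPKM with Wnt3a plus Rspondin 1, against 28.64, 28.53 and 29.51 FPKM in OGD. The groups overlapped, and the log2 change was 0.02, with a 95% interval of -0.14 to 0.18 (adjusted p = 0.992, edgeR). Vegfb stood at 16.96, 16.31 and 14.35 FPKM with Wnt3a plus Rspondin 1, against 21.80, 15.39 and 15 FPKM in OGD, with a log2 change of -0.15 (-0.46 to 0.17) that was 0.05 without OGD replicate 1. The sign of the Vegfb difference thus rested on that library.

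Kdr stood at 1.22, 1.16 and 1.43 FPKM with Wnt3a plus Rspondin 1, against 1.29, 1.20 and 1.57 FPKM in OGD, a log2 change of -0.14 (-0.50 to 0.22). Vegfc stood at 0.52, 0.86 and 1.02 FPKM with Wnt3a plus Rspondin 1, against 1.25, 0.80 and 0.95 FPKM in OGD, a log2 change of -0.34 (-1.08 to 0.39) that ranged from -0.56 to -0.10 with 1 library left out. Pgf stood at 1.57, 1.28 and 1.28 FPKM with Wnt3a plus Rspondin 1, against 1.70, 1.41 and 1.02 FPKM in OGD, a log2 change of -0.01 (-0.57 to 0.54). Each of these genes overlapped between the groups, and over all genes 9.57% did not. The intervals are narrow for Vegfa and wide for Vegfc and Pgf, for which a change of moderate size would not have been detectable at this depth.

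Nrp1 stood at 2.99, 2.19 and 3.08 FPKM with Wnt3a plus Rspondin 1, against 2.84, 3.27 and 3.88 FPKM in OGD, a log2 change of -0.29 (-0.59 to 0.01, adjusted p = 0.915, edgeR). Nrp2 was at 0.02 (-0.21 to 0.26) and Vegfd at 0.49 (-0.26 to 1.24). In the pathway lists, Hspb1 alone passed: it stood at 109 ± 12.6 FPKM with Wnt3a plus Rspondin 1 and 52.2 ± 3.33 FPKM in OGD, a rise of 1.04 ± 0.11 (adjusted p = 0.00109, edgeR). Among the cell type markers, the astrocyte gene Gja1 rose by 0.38 ± 0.06 (adjusted p = 0.0404, edgeR). The astrocyte gene Glul fell by 0.59 ± 0.07 (adjusted p = 0.00293, edgeR). Axin2 rose by 1.24 ± 0.12 (adjusted p = 0.000776, edgeR).

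OGD with Wnt3a plus Rspondin 1 was last set against control. This comparison shares its control libraries with that of OGD alone, so the values stand beside each other and are not separate evidence. It called 9941 genes (72.6%), 36.6% of those tested as higher and 36% as lower, and 3 of the 5 genes tested, whose libraries did not overlap (78.7% of all genes did not). Vegfa fell by 2.21 ± 0.08, against a fall of 2.23 with OGD alone. Vegfb rose by 0.81 ± 0.15 and Kdr by 2.06 ± 0.19, against 0.96 and 2.20 with OGD alone. Vegfc stood at 0.41 ± 0.36 (adjusted p = 0.309, edgeR; 0.12 without control replicate 3 and 0.70 without control replicate 2) and Pgf at 0.24 ± 0.26 (adjusted p = 0.416, edgeR). Nrp1 fell by 1.57 ± 0.13, Nrp2 by 0.96 ± 0.11 and Vegfd by 1.15 ± 0.29.

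The genes whose profile over the 9 libraries lay closest to a member, by the root-mean-square difference of centred log2 CPM among 12161 genes, were named for each. Closest to Vegfa were Dcaf12l1 (0.0718), Jakmip3 (0.0734) and Cend1 (0.0752). Cend1, a neuronal cell cycle exit gene, stood at 16.8 FPKM with Wnt3a plus Rspondin 1, 17.1 FPKM in OGD and 76.1 FPKM in control. Closest to Vegfb were Ndufs7 (0.0482), a subunit of respiratory complex I, Polr2e (0.0645), an RNA polymerase subunit, and Kyat1 (0.0657). Closest to Kdr were Eya1 (0.15), Eef2kmt (0.151) and Fos (0.156). Fos, an immediate early gene, stood at 21.5 FPKM with Wnt3a plus Rspondin 1, 22.7 FPKM in OGD and 5.63 FPKM in control. Vegfc had the loosest matches, with Vit, Sntb2 and Lrrc46 at 0.229 to 0.238. Map3k1, Tomm6 and Ggact lay at 0.118 to 0.122 from Pgf. All profiles share the same libraries and the same wide gap between OGD and control, which most genes show. By Pearson correlation instead, 1 of the 3 genes named for Vegfa, all 3 for Pgf and 0 for Vegfb, Vegfc and Kdr were named again.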

How the data were processed

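RNA of 9 libraries was sequenced after TruSeq preparation, per the labels' protocols. The authors deposited whole-number counts and FPKM per gene, per the file headers, with their own log2 changes, p-values and FDR, whose test is not stated. Bowtie 0.12.2 and mouse builds (mm8, mm9) are named in the submitters' processing notes, whereas the identifiers are rat Ensembl genes; the rat build, annotation, counter and strand use are not given in the sources here. Counts per gene do not resolve isoforms.

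Counts as deposited were fitted with edgeR 4.0.16 in R 4.3.3 (robust quasi-likelihood, TMM, all 9 libraries, 3 contrasts). The filterByExpr filter (minimum count 10 in 3 libraries, minimum total 15) left 13693 of 17332 genes with a read. Benjamini-Hochberg adjustment ran over these, threshold 0.05. The common biological coefficient of variation was 10.3%. A count of 0 allows up to 3 counts, 0.120 to 0.210 CPM, and covers counting error only. Ratios of FPKM per library were compared by exact permutation. Alternatives were RLE factors, library totals, no filter, 6 libraries, a replicate block, each library left out, DESeq2 1.42.0 and limma 3.58.1 on log2(FPKM + 0.1).

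The members and lists were chosen with earlier results of these data known. Named were all members and co-receptors, the HIF alpha genes and Arnt, and from each pathway list up to 4 genes with the largest called change in OGD against control and a group mean of at least 1 FPKM, plus any called with Wnt3a plus Rspondin 1. Some genes that this rule gives are not reported here. Promoter windows came from RefSeq (GRCr8), matched by symbol for all 6 members.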

Additional observations from a re-analysis of the deposited data

How the results depend on the processing

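The calls of Vegfa, Vegfb and Kdr in both comparisons with control kept direction and threshold under every alternative run: with 1 library left out, the OGD changes ranged from -2.25 to -2.20, 0.76 to 1.06 and 2.08 to 2.39. Vegfc, OGD against control, ranged from 0.46 to 1.05 and passed without control replicate 2, with library totals only (0.84) and with limma on FPKM (0.76), so 3 or 4 members were called. For the added proteins over OGD no member was called anywhere, and values near 0 changed sign: Pgf was 0.0083 with library totals, 0.021 with limma on FPKM and -0.19 to 0.16 with 1 library left out, Vegfb -0.25 to 0.053, and Vegfa -0.041 to 0.054. The count of all genes called there, 27, was 15 with the 6 libraries alone, 99 with DESeq2 and 12 to 49 with 1 library left out. The cause was not tested. Library totals moved the median of all genes to 0.14 with Wnt3a plus Rspondin 1 over control, against 0.03 with TMM; relative to these medians the members' directions were the same. Same-numbered libraries correlated at -0.07 to 0.27 in their deviations from the group mean. Between OGD and OGD with the added proteins, same-numbered pairs stood at 0.23, 0.07 and 0.27. Pairs with different numbers stood at -0.24 to -0.02 there, and at -0.32 to 0.28 between OGD and control. Whether the numbers pair the samples is not stated and was not settled by this check. With the replicate block, 65 genes were called for the added proteins over OGD, and the members called stayed at 3, 0 and 3. Depth limits Vegfc, Pgf, Flt1, Vegfd and Flt4, at 0 to 53 reads a library.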

Other observations

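Genes that share the neuropilins with VEGF also differed between OGD and control. All 12 class 3 semaphorins and plexins tested were called, 10 lower and 2 higher. Their median log2 change was -1.14, against 0.02 for all genes, of which 73.1% were called (36.8% lower, 36.3% higher). Sema3f, a guidance cue that acts through Nrp2, stood at 1.66 ± 0.224 FPKM in OGD and 9.24 ± 1.29 FPKM in control, and fell by 2.54 ± 0.13. Sema3a, the ligand of Nrp1, fell by 1.98 ± 0.16, and the plexin genes Plxna4 and Plxna1 fell by 2.13 ± 0.16 and 1.72 ± 0.11. The 2 higher ones, named after their values were seen, were Sema3b (1.54 ± 0.12) and Sema3d (1.32 ± 0.14). None of the 12 passed the edgeR test for Wnt3a plus Rspondin 1 over OGD.

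Of 15 extracellular modulators of VEGF measured, 13 passed the filter. Of these, 5 rose and 6 fell (median -0.62), beside 36.3% of all tested genes called higher and 36.8% called lower in OGD. Mmp14, a membrane protease, rose by 1.5 ± 0.08, to 135 ± 9.58 FPKM in OGD against 44.9 ± 2.65 FPKM in control. The growth factor-binding gene Ccn2 fell by 2.51 ± 0.37, the vasohibin gene Vash2 by 1.87 ± 0.13, and Adamts3, a protease that takes part in VEGF-C processing, by 1.73 ± 0.12. Of 21 other angiogenic ligands and receptors measured, 15 passed the filter. Of these, 10 rose and 4 fell (median 1.06), to be read beside the same shares. Angptl4 rose by 4.77 ± 0.17 and the fibroblast growth factor gene Fgf2 by 2.18 ± 0.17, which stood at 12.6 ± 2.33 FPKM in OGD and 2.58 ± 0.320 FPKM in control. Pdgfb, the ligand that recruits pericytes, fell by 4.18 ± 0.23, to 0.307 ± 0.0569 FPKM in OGD against 5.39 ± 0.723 FPKM in control, while Pdgfrb, its receptor, named after its value was seen, rose by 1.22 ± 0.17. The receptor gene Met fell by 2.12 ± 0.17. Of the 8 mural cell and fibroblast markers tested, 4 rose and 3 fell (median 0.60). Most of the sum over the 11 in the table was Tagln (749 ± 106 FPKM in OGD and 96.8 ± 10.8 FPKM in control). That sum was 641 to 761 FPKM with Wnt3a plus Rspondin 1, 672 to 887 FPKM in OGD and 94.0 to 117 FPKM in control. All 9 microglial markers that passed the filter, of 13 measured, rose (median 2.16). Aif1 passed it through the OGD groups, where it was higher. The part of these cell types in the results above was not tested.

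A further promoter motif was counted after the sequences had been seen. The GC box GGGCGG, on either strand, was at 3 places in the first Vegfa window, 4 in that of Vegfb and 1 in that of Kdr. The windows of Vegfc, Pgf and Flt1 held it at 2, 2 and 3 places, and the second Vegfa window at 0. Of all windows 30.5% held it at least 1 time.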
